A study of Mus musculus with 6 samples.

Results

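The Pln/Pgam2/Olfr558 smooth muscle cells described here are a small group of vascular smooth muscle cells (VSMCs) of the mouse ascending aorta and its root. They were selected on measured transcripts. A cell had to pass the quality limits, to hold at least 5 Myh11 molecules and fewer than 20 Dcn molecules per 10k molecules, to hold at least 1 molecule of Enpep or Notch3, and to reach a score of at least 8, where the score is the summed number of Pln, Pgam2, Olfr558 and Corin molecules per 10k. Molecules are unique molecular identifiers (UMIs). By this rule 439 cells were members, out of 9744 cells within the Myh11 and Dcn limits, 24972 cells within the quality limits and 30716 cell barcodes in all. The comparison groups met the same Myh11 and Dcn limits. They were 2154 cells that also held an Enpep or Notch3 UMI but scored under 8, called low-score cells here, and 7151 cells in which neither Enpep nor Notch3 was detected.

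The cells came from female mice of 16 weeks on a 129 background. There were 6 samples: 4 controls (CTL), of which 2 were Tgfbr1+/+; Wnt2CRE; EGFP-L10a and 2 were Tgfbr1+/+, and 2 Loeys-Dietz syndrome (LDS) samples of genotype Tgfbr1M318R/+, which carry a heterozygous missense mutation in a TGF-beta receptor. In the traced controls, a Cre recombinase under the Wnt2 promoter, which the study uses as specific for cardiac neural crest, switches on the conditional EGFP-L10a tracer. All tissue was digested with collagenase and elastase, and live nucleated cells were sorted before 3' single-cell library preparation. The barcodes of the aggregated matrix carry a library number from 1 to 6, but the labels do not pair these numbers with mice. No library could therefore be assigned to a genotype, and CTL and LDS were not compared, with no test between genotypes. Values below are given over the 6 libraries as the lowest, the median and the highest, in full or in part. A single level of a group is the sum over all libraries unless it is called a median.

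The deposited matrix and the labels differed at one point. UMIs of a GFP transcript numbered 263, 201, 157 and 258 in the quality-filtered cells of libraries 1 to 4 and 8 and 6 in libraries 5 and 6, so that 4 libraries held the tracer transcript, while the labels list the tracer alleles for 2 samples. The quality-filtered libraries held 1863 to 6395 cells, with a median of 5572 to 9838 UMIs per cell. The members of a library together held 268508 to 799643 UMIs. Of the quality-filtered barcodes, 152 occurred in more than 1 library, 3 members among them, and no barcode was held by members of more than 1 library.

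VSMCs form the contractile medial layer of the aorta and also secrete its elastic fibres and collagens. Contraction is driven by calcium that enters the cell or leaves the sarcoplasmic reticulum, and phospholamban, the product of Pln, restrains the pump that returns calcium to that store. Pgam2 encodes the muscle form of the glycolytic enzyme phosphoglycerate mutase, Corin a membrane protease known for activating atrial natriuretic peptide, and Olfr558 an olfactory-type G protein-coupled receptor found outside the nose in blood vessels. Enpep encodes the aminopeptidase that cleaves angiotensin II, and Notch3 the Notch receptor typical of arterial smooth muscle.

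The promoters of the 4 score genes are shown because their transcripts define the group. All 4 genes had an entry in the RefSeq promoter table (GRCm38.p6), which holds 250 bases before and 50 bases from the RefSeq start of each gene. In the sequences below, written 5′ to 3′ on the strand of the gene, capitals mark the letters CANNTG (the E-box) and, in Pgam2 only, a match to the MEF2 site. The Pln window is chr10:53337436-53337735 on the plus strand, the Pgam2 window chr11:5803747-5804046 on the minus strand, the Olfr558 window chr7:102702073-102702372 on the plus strand and the Corin window chr5:72504491-72504790 on the minus strand.
Pln: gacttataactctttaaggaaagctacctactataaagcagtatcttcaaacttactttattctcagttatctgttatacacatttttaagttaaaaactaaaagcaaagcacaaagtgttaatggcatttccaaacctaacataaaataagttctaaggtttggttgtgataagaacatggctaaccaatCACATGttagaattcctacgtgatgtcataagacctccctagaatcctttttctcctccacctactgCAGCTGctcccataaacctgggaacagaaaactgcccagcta
Pgam2: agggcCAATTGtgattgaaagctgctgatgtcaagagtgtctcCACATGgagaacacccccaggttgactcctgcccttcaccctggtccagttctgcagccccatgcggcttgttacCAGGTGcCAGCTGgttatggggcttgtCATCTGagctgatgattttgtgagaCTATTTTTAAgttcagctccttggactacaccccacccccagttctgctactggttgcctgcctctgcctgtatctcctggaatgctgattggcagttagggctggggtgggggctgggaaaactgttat
Olfr558: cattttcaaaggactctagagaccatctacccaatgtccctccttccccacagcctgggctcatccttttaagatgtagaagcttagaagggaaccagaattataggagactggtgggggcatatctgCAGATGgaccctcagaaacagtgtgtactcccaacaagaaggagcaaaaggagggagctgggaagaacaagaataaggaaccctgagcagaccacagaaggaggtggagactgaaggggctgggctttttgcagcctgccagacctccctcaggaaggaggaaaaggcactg
Corin: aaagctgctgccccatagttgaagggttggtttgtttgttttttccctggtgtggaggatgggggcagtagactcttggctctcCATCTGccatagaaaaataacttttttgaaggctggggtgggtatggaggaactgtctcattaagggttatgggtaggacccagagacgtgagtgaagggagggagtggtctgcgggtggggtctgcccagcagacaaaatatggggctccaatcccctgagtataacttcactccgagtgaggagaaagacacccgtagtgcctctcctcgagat
An E-box was present in all 4 windows, with 2 matches in Pln, 5 in Pgam2, 1 in Olfr558 and 1 in Corin, and it was also present in 72.3% of the 32851 promoters of the table. The MEF2 site matched once, in Pgam2 from position -80 to -71 relative to the RefSeq start, and the same motif was found in 3.19% of all promoters. Neither the CArG box, found in 1.63% of promoters, nor the letters GTGGGAA of an RBPJ site, found in 6.38%, occurred in these windows on either strand, where overlaps between motifs were allowed. These matches describe letters only. The RefSeq starts lay 1 base (Pln), 63 bases (Pgam2), 108 bases (Olfr558) and 67 bases (Corin) from the nearest transcript start of the GENCODE M21 annotation.

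The genes of the rule are given as a description, since they chose the cells. Summed over the members of each library, Pln stood at 494 to 1344 CPM (the gene's UMIs as a share of all UMIs of those cells, on the usual CPM scale) with a median of 822, Pgam2 at 264 to 499 with a median of 344, Corin at 179 to 423 with a median of 265, and Olfr558 at 92.6 to 191 with a median of 143. The score of the members ran from 8.01 to 57.7 UMIs per 10k with a median of 13.8 and quartiles of 10.4 and 19.6. All 4 score genes were detected in 132 members (30.1%), 3 in 172, 2 in 96 and a single one in 39. An Enpep UMI without Notch3 was found in 179 members, Notch3 without Enpep in 75, and both in 185. Summed over all libraries, Enpep stood at 253 CPM in members and 126 CPM in low-score cells, and Notch3 at 158 and 75.9 CPM. Low-score cells thus met the same limit on these genes but held them at a lower level. Cells lay close to the limit on both sides: 95 members scored between 8 and 10, and 126 cells with an Enpep or Notch3 UMI fell just outside, between 6 and 8. In these neighbours Sorbs2 stood at 981 CPM inside the limit and 886 outside, Mfap4 at 233 and 331, and Eln at 224 and 300. Other genes differed more across the limit: Tbx2 stood at 63.7 CPM inside and 27.1 outside, Gja1 at 7.41 and 29.0, and Npr1 at 1.48 and 19.3. Gja1 rested on 5 UMIs inside and 30 outside, and Npr1 on 1 and 20. The Poisson 95% intervals inside were 2.41 to 17.3 CPM for Gja1 and 0.0375 to 8.26 CPM for Npr1. A score of 8 or more was reached by 16.9% of the cells with an Enpep or Notch3 UMI (exact binomial, Clopper-Pearson, 95% interval 15.5 to 18.4%) and by 1.34% of the cells without one (1.09 to 1.64%).

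Members were found in all libraries but in unequal shares. They numbered 35, 40, 50, 112, 126 and 76 in libraries 1 to 6, which was 2.17% (1.52 to 3.01%), 4.68% (3.36 to 6.32%), 3.21% (2.39 to 4.21%), 6.40% (5.30 to 7.65%), 3.97% (3.32 to 4.71%) and 9.52% (7.58 to 11.8%) of the smooth muscle cells. Library 6 had the highest share and library 1 the lowest, and their intervals did not overlap. These intervals cover counting error only, as cells of a library are not replicates. The median share was 4.32%. Among the cells with an Enpep or Notch3 UMI alone, members made up 8.24% to 25.9%, with a median of 16.7%. How much of the spread came from genotype, dissection or digestion was not tested.

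**Figure D1:**
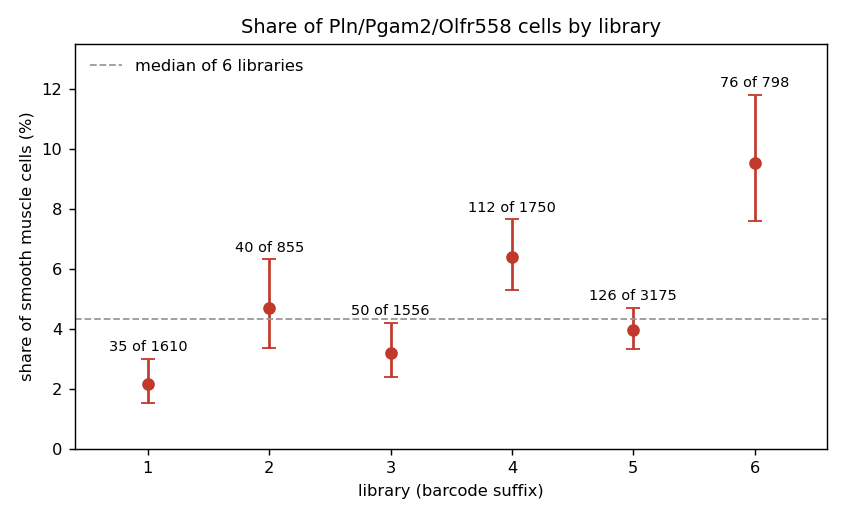
Share of Pln/Pgam2/Olfr558 cells among the smooth muscle cells of each library, in percent, with the exact binomial 95% interval and the number of cells above each point. The share is lowest in library 1 (2.17%) and highest in library 6 (9.52%), and the dashed line marks the median of 4.32%.

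The members were smooth muscle cells by transcripts that the rule did not use. Acta2, smooth muscle actin, stood at 27306 to 32013 CPM over the libraries (median 29599) and at 26699 to 30706 CPM (median 28353) in low-score cells. Tagln, an actin-binding protein of smooth muscle, stood at 21880 to 29136 CPM against 20255 to 24246 CPM. Both ranges overlapped. Several defining transcripts of cardiomyocytes were at or near 0: Myh6 had 1 UMI in all members together, and Myh7, Myl2, Myl3, Nppa and Nppb had 0 (a count of 0 allows up to 3 UMIs). Other genes of heart or striated muscle went in both directions. Actc1 was found in 2.96% of members and 1.86% of low-score cells. The log2 ratio to low-score cells was 3.45 for Tnnc1 and 1.73 for Casq2. It was -2.76 for Actn2, -2.26 for Casq1 and -1.46 for Tnnt2. With the digestion share described below matched, the ratio of Tnnc1 ran from -1.03 to 4.01 over the libraries and was not called. The summed level of the 21 cardiomyocyte markers was 59.6 to 193 CPM in members and 130 to 209 CPM in low-score cells. Of 4 measured, 0 were called higher and 2 lower, against 1.74% and 4.52% of all 7648 genes compared below. The pericyte marker Vtn had 0 UMIs, and Abcc9 and Kcnj8, the subunits of the pericyte ATP-sensitive potassium channel, stood at 4.14 and 13.3 CPM, against 36.8 and 15.2 CPM in low-score cells. Higd1b, another pericyte marker, stood at 29.6 CPM against 3.89 CPM. The 13 pericyte markers, Rgs5 among them, summed to 780 to 1814 CPM in members and 720 to 1225 CPM in low-score cells, with 1 of 8 measured called higher, Gjc1, and 1 lower, Abcc9. The 12 endothelial markers summed to 100 to 129 CPM against 58.2 to 176 CPM, with Esam (1.21) called higher and Pecam1 (-2.90) lower. The summed leukocyte markers came to 6.37 to 49.3 CPM against 4.57 to 164 CPM, and the 15 fibroblast markers to 939 to 1455 CPM against 1835 to 3116 CPM, although several of the fibroblast markers are matrix genes that VSMCs also express. Of the members, 0.228% had a doublet score among the highest 5% of their library, against 3.71% of low-score cells.

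Members and low-score cells were compared gene by gene within each library. The UMIs of each group were pooled per library, and the difference is the log2 ratio of the CPM, given as the median over the 6 libraries. A gene was called where the ratio had the same sign in all 6 libraries and its median was at least 1 in size. Of 7648 genes with at least 10 CPM in smooth muscle cells, 133 were higher in members (1.74%) and 346 were lower (4.52%). The median gene was at -0.10. Where groups are said below not to overlap, this describes the named genes only, as the share over all genes is not given. Against the cells without an Enpep or Notch3 UMI, 216 genes were higher (2.82%) and 456 lower (5.96%). Both comparisons use the same members. With each cell thinned to 3000 UMIs, 66 genes were higher and 277 lower than in low-score cells. Immediate early and heat shock genes, which respond to digestion, took a larger share of the UMIs in members (median 3.09% per cell) than in low-score cells (1.81%) or cells without Enpep and Notch3 (1.19%). With low-score cells weighted to the members' distribution of that share in each library, 82 genes were higher, 79 of them among the 133, and 300 were lower, 293 of them among the 346.

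The gene with the largest ratio to low-score cells was Rasd1. Rasd1, a small GTPase induced by glucocorticoids (chromosome 11, 59963181 to 59964944 in GRCm38), was at 149 to 327 CPM in members (median 196), at 10.9 to 37.1 CPM (median 21.9) in low-score cells and at 2.75 to 14.4 CPM (median 9.29) in cells without Enpep and Notch3. Every library of members lay above every library of both other groups. The log2 ratio to low-score cells was 3.41 (1.98 to 4.82), and 2.43 with the digestion share matched. Sorbs2, a scaffold protein of actin fibres and cell junctions (chromosome 8, 45507788 to 45827906), was at 1133 to 1598 CPM in members (median 1400) and at 208 to 310 CPM (median 276) in low-score cells. The ratio was 2.28 (2.13 to 2.77), with little spread between libraries and no overlap. A Sorbs2 UMI was present in 96.4% of members, 61.9% of low-score cells and 0.792% of leukocyte-gated cells, or in 89.4%, 39.8% and 0.735% after thinning to 3000 UMIs. The median depth was 7139, 7580 and 4904 UMIs.

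Among transcription factors, Tbx2, a T-box repressor known from the developing atrioventricular canal and outflow tract (chromosome 11, 85832551 to 85841948), was at 65.9 to 105 CPM (median 93.5) in members and at 12 to 17.6 CPM (median 15.4) in low-score cells, a ratio of 2.45 (2.27 to 2.87). Nr2f2, which encodes COUP-TFII, was at 344 to 563 CPM (median 502) against 95.1 to 209 CPM (median 131), a ratio of 1.82 (1.35 to 2.07). The libraries of both groups did not overlap for either gene. Of the 24 measured regional transcription factors, these were the 2 called higher, and 4 were called lower. Of all 7648 genes, 1.74% were called higher and 4.52% lower. The lower factors were Hoxa3 (-2.32), Hoxb2 (-1.82) and Hoxb3 (-1.56), anterior Hox genes, and Foxf1 (-2.44), and the median of the 24 was -0.04. Gata4, a cardiac zinc finger factor, was at 29.8 to 61.7 CPM (median 38.1) in members, 14.2 to 27.7 CPM (median 16.1) in low-score cells and 8.47 to 21.9 CPM (median 10.4) in cells without Enpep and Notch3. Its ratio to low-score cells, 0.88 (0.41 to 2.01), was positive in all 6 libraries but under the limit for a call. A Gata4 UMI was found in 26.9% of members, 14.4% of low-score cells and 0.198% of leukocyte-gated cells, and in 10.8%, 6.51% and 0% of them after thinning.

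The other genes among the 15 with the largest ratios had medians from 2.0 to 2.93. Bex4 (2.93), Tmem51 (2.30), Susd2 (2.15), Trp53i11 (2.08), Mlf1 (2.07), Tcim (2.02) and the diacylglycerol kinase Dgkb (2.0) were among them, as were Sncg (2.20), which encodes gamma-synuclein, the nuclear receptor Nr4a2 (2.06), the complement protease C1s1 (2.01) and the TNF family ligand Tnfsf9 (2.0). Gm13861 (2.66), a non-coding gene, lies within Cald1 on the opposite strand, so its reads are uncertain. All 15 remained called with the digestion share matched, and Trp53i11 and Dgkb were not called after thinning. The 5 largest ratios to the cells without Enpep and Notch3 were those of Rasd1 (4.71), Gja4 (4.41), Thbs1 (4.18), Sncg (4.10) and C1s1 (3.73). Thbs1, thrombospondin 1, was at 304 to 691 CPM in members (median 462), 69.3 to 161 CPM in low-score cells (median 111) and 15.6 to 42.1 CPM (median 27.4) in cells without Enpep and Notch3.

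**Figure D2:**
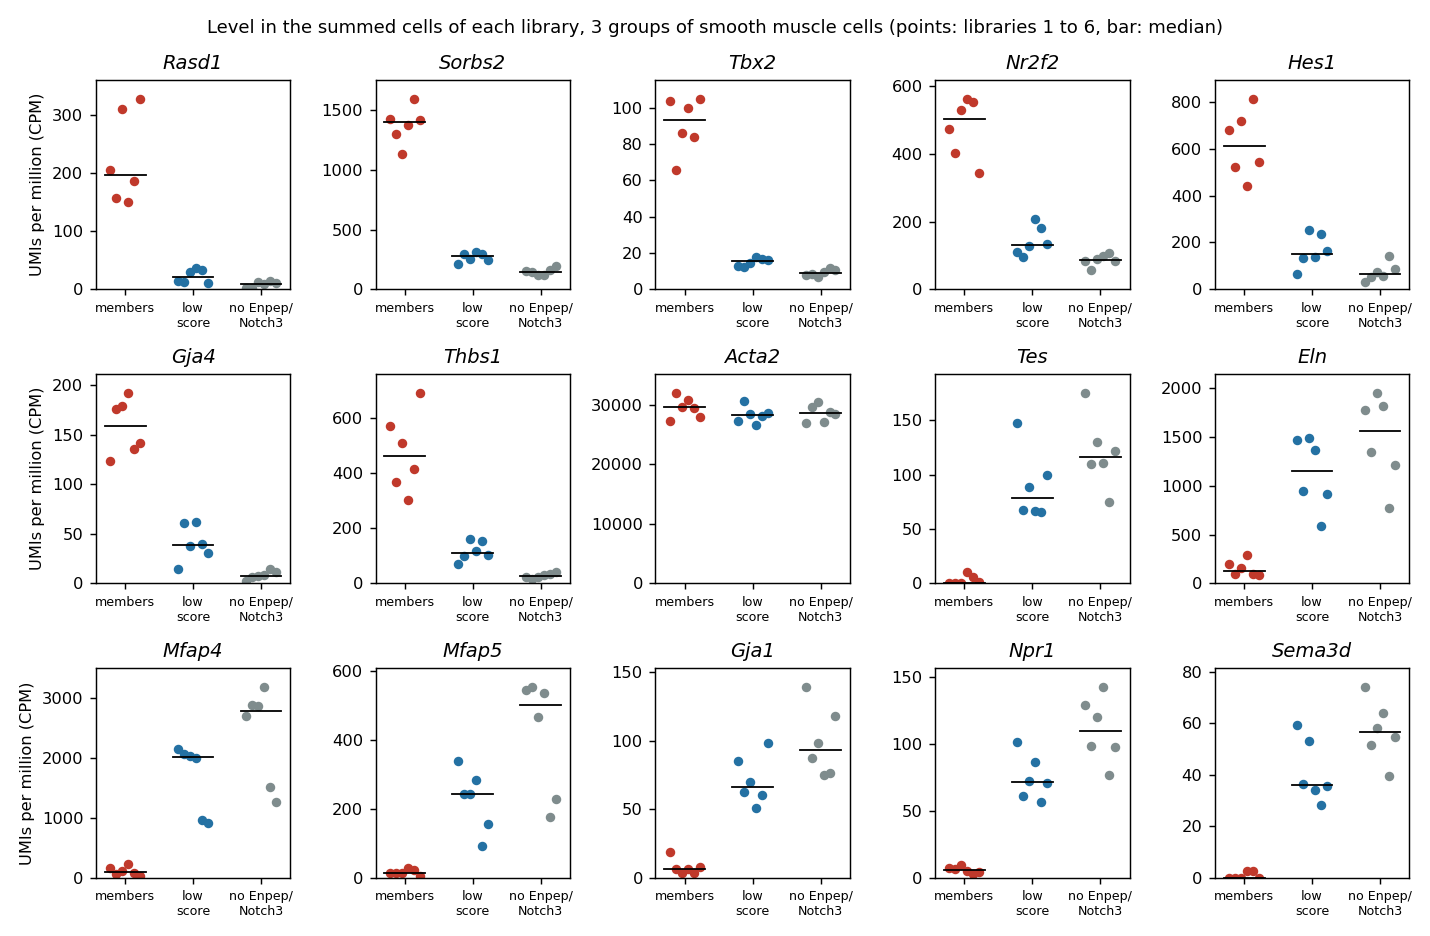
CPM of 15 genes in the summed cells of each library (points, libraries 1 to 6 from left to right within a group) for members, low-score cells and cells without an Enpep or Notch3 UMI, with the median as a bar and each axis starting at 0. Rasd1, Sorbs2, Tbx2, Nr2f2, Hes1, Gja4 and Thbs1 lie higher in members without overlap, Tes, Eln, Mfap4, Mfap5, Gja1, Npr1 and Sema3d lie lower without overlap, and Acta2 overlaps.

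Of 30 contractile genes measured, 2 were called higher and 0 lower, against 1.74% and 4.52% of all 7648 genes. Their median ratio was 0.16 (0.06 to 0.19 over libraries). In all 6 libraries 10 of the 30 were higher and 6 lower, against 8.15% and 17.8% of all genes. The summed level of the list was 96378 to 105667 CPM in members (median 102883) and 87372 to 94588 CPM (median 91204) in low-score cells, and these ranges did not overlap. Synm, an intermediate filament protein that was called higher, stood at 95.7 to 116 CPM in members against 31.2 to 56.8 CPM in low-score cells, a ratio of 1.29. Several genes that were not called had small values: Tpm2, tropomyosin, differed by 0.47 and Cald1 by 0.46 higher in all 6 libraries, and Cnn1, calponin, by -0.15, lower in all 6. Carmn, a non-coding RNA of VSMCs (-0.77), and Des, desmin (-0.49), had the lowest ratios of the list.

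Genes of the extracellular matrix were lower in members, and few were higher. Of 16 measured genes of elastic fibres, 0 were higher and 9 lower, against 1.74% and 4.52% of all 7648 genes. Their median was -1.12 (-1.26 to -0.96). Mfap4, a microfibril-associated protein, stood at 33.8 to 236 CPM in members (median 94.4) against 912 to 2157 CPM (median 2019) in low-score cells and 1261 to 3181 CPM (median 2786) in cells without Enpep and Notch3. Its ratio to low-score cells was -3.98 (-5.10 to -3.08). Mfap5, of the same microfibrils, stood at 5.19 to 26.8 CPM against 91.8 to 338 CPM, a ratio of -4.04. Eln, elastin itself (chromosome 5, 134702593 to 134747323), was at 90.9 to 288 CPM (median 128) in members, 588 to 1494 CPM (median 1156) in low-score cells and 778 to 1951 CPM (median 1564) in cells without Enpep and Notch3. The highest library of members lay below the lowest of either comparison group for all 3 genes. Fibulin-5 (Fbln5, -1.44), fibulin-1 (Fbln1, -1.54), Ltbp4 (-1.21), Ltbp3 (-1.10), Loxl1 (-1.08) and fibrillin-1 (Fbn1, -1.15) completed the 9. With the digestion share matched, Ltbp3 (-0.93), Loxl1 (-0.90) and Fbn1 (-0.90) were not called, 6 of the 16 were lower and the list median was -0.91. Fbn1 and Fbln1 overlapped between the groups. Efemp2 (0.05), Emilin1 (-0.09) and the cross-linking enzyme Lox (-0.34) were not called.

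Of 13 fibrillar collagens and their partners, 8 were lower and 0 higher, with a median of -1.15, and 8 were again lower after matching. Of all 7648 genes, 4.52% were called lower and 1.74% higher. Col1a1, the alpha-1 chain of type I collagen, was at 94.8 to 328 CPM in members (median 162) against 490 to 833 CPM (median 646), a ratio of -1.68. Postn, periostin, was at 46.3 to 164 CPM against 387 to 858 CPM, a ratio of -2.55. Neither overlapped. Basement membrane genes divided: 6 of 16 were lower, among them Col15a1 (-3.59), Lama2 (-2.65) and Lama4 (-1.92), while the main type IV collagen chains Col4a1 (0.01) and Col4a2 (0.18) and the laminin Lamb2 (0.11) were not called. Among 16 matricellular genes, 7 were lower, including tenascin-C (Tnc, -3.27), cartilage oligomeric matrix protein (Comp, -3.13) and Aebp1 (-2.88), and Thbs1 (1.76) was the only one called higher. Of 11 integrin subunits, through which cells bind this matrix, 4 were lower: Itga4 (-3.11), Itga5 (-1.76), Itga8 (-1.22) and Itga9 (-1.13). Itgb1, the common beta subunit, had a ratio of -0.21.

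**Figure D3:**
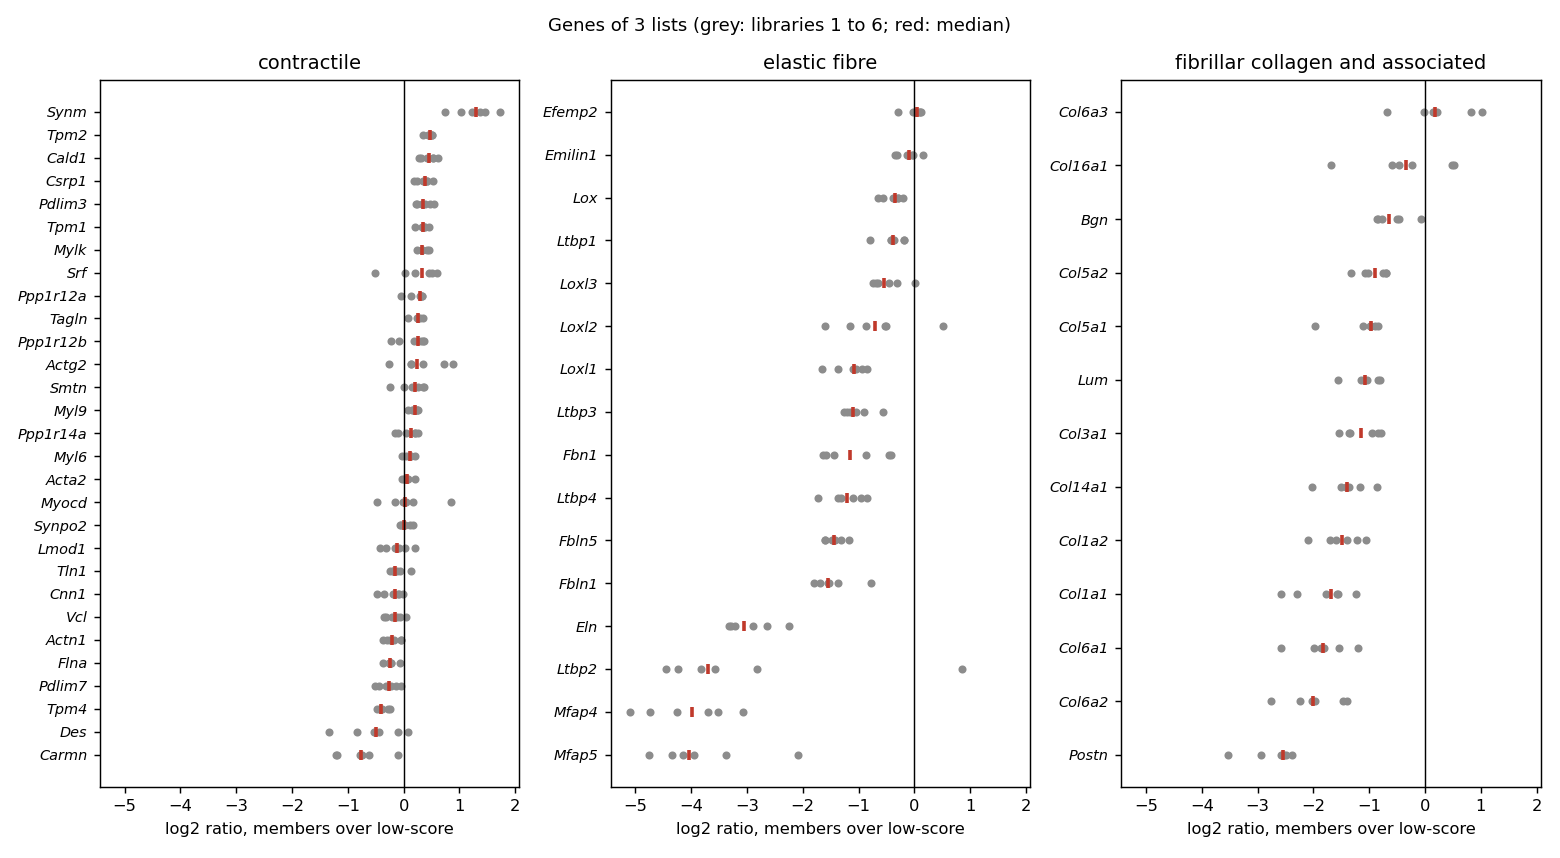
Log2 ratio of members over low-score cells for measured genes of the contractile, elastic fibre and fibrillar collagen lists, in each library (grey) and as the median (red). The medians of the contractile genes shown run from -0.77 (Carmn) to 1.29 (Synm), whereas Mfap5 (-4.04), Mfap4 (-3.98), Eln (-3.05) and Postn (-2.55) lie far below 0 in all 6 libraries.

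Gap junction genes changed in opposite directions. Connexins join neighbouring cells, and 3 were measured above the minimum. Gja4, which encodes connexin 37, was at 123 to 192 CPM in members (median 159) and at 14.5 to 62.4 CPM (median 38.8) in low-score cells, a ratio of 1.95. Gjc1, connexin 45, was at 127 to 209 CPM against 59.6 to 91.4 CPM, a ratio of 1.16. Gja1, connexin 43, was at 3.09 to 18.6 CPM (median 6.54) against 51.1 to 98.0 CPM (median 66.3), a ratio of -3.32 (-3.95 to -2.08). All 3 were called, against 1.74% of all 7648 genes called higher and 4.52% lower, and all 3 remained called after matching.

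Of 9 measured genes of Notch signalling, with Notch3 set aside, 1 was called higher and 0 lower, against 1.74% and 4.52% of all 7648 genes. Hes1, a transcriptional repressor and a target of Notch, was at 442 to 814 CPM in members (median 613), at 65.3 to 254 CPM (median 151) in low-score cells and at 29.7 to 143 CPM (median 65.4) in cells without Enpep and Notch3. Its ratio was 1.75 (1.5 to 3.35), and 1.19 after matching. The ligand Jag1 (0.68) and the target Hey2 (0.57) were higher in all 6 libraries but below the limit, and Heyl (-0.01), Rbpj (-0.75) and Maml2 (-0.98) were not called. Nrip2, a nuclear receptor-interacting protein placed with this list, and Nrarp, a Notch feedback regulator, fell under the 10 CPM minimum in smooth muscle cells as a whole. Nrip2 was at 37.5 to 112 CPM in members and 1.56 to 6.78 CPM in low-score cells, and Nrarp at 3.75 to 48.4 CPM and 0 to 10.5 CPM.

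Calcium handling and ion channel genes, the list to which Pln belongs by function, had a median of -0.16 over 33 measured genes, with 2 higher and 4 lower. Of all 7648 genes, 1.74% were called higher and 4.52% lower. The plasma membrane calcium pump Atp2b1 stood at 159 to 188 CPM against 73.3 to 84.8 CPM, a ratio of 1.12 that came to 0.99 after matching. The background potassium channel Kcnk3 stood at 40.4 to 64.8 CPM against 16.9 to 28.1 CPM, a ratio of 1.07. The lower genes were Abcc9 (-2.85), the calcium store protein Casq1 (-2.26), the calcium channel subunit Cacna1d (-1.96) and the chloride channel Ano1 (-1.46). Atp2a2, the calcium pump that phospholamban restrains, had a ratio of -0.16, the ryanodine receptor Ryr2 of 0.05 and the inositol trisphosphate receptor Itpr1 of 0.52, none of them called. The voltage-gated potassium channel Kcna5 did not reach the minimum in smooth muscle cells as a whole, and was at 36.3 to 86.4 CPM in members (median 69.5) and at 0.387 to 9.95 CPM (median 5.26) in low-score cells.

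Receptors and peptidases of vasoactive signals moved in both directions. For comparison, 1.74% of all 7648 genes were called higher and 4.52% lower. Of 12 measured receptors and regulators, Rgs4 (174 against 44.8 CPM over all libraries, a ratio of 1.99) and Rgs7bp (148 against 53.4 CPM, 1.5), which tune G protein signalling, were called higher, and the thrombin receptor F2r (71.3 against 162 CPM, -1.28) and the serotonin receptor Htr1b (9.17 against 23.7 CPM, -1.20) were called lower. In the list of natriuretic peptide and cyclic GMP genes, to which Corin belongs by function, the receptor Npr1 was at 2.5 to 9.26 CPM in members (median 5.87) against 56.1 to 101 CPM (median 71.4), a ratio of -3.66 (-4.18 to -2.77). Npr3, the clearance receptor, had a ratio of -2.57 on 5 UMIs in members, and Pde1a, a cyclic nucleotide phosphodiesterase, of 1.45. Gucy1a1 and Gucy1b1, the subunits of the soluble guanylate cyclase, had ratios of 0.51 and -0.20. Among 5 measured angiotensin peptidases, Ace, which makes the angiotensin II that the Enpep product cleaves, was the only one called, at 6.17 to 24.1 CPM against 53.2 to 108 CPM, a ratio of -2.42. Agtr1a, the angiotensin II receptor, was below the minimum, with 2 UMIs in all members (0.592 CPM) and 4.38 CPM in low-score cells.

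Metabolic genes other than Pgam2 were also measured. Of 24 genes of glycolysis and energy supply, 2 were called higher and 0 lower, against 1.74% and 4.52% of all 7648 genes. The median of the 24 was 0.18, against -0.10 for all genes. Creatine kinase B (Ckb) was at 1201 to 2227 CPM in members (median 1562) against 437 to 961 CPM (median 512), a ratio of 1.48, and the insulin-responsive glucose transporter Slc2a4 at 25 to 81.8 CPM against 13.7 to 22.6 CPM, a ratio of 1.43. Both lay above low-score cells in all libraries and were called after matching. Pgam1, the form of the enzyme in other tissues, had a ratio of -0.15. Of 12 respiratory isoforms and hypoxia genes, 0 were called, with Cox4i2 at 0.87 and Epas1 at 0.67 in the same direction in all 6 libraries. Of 12 lipid genes, 3 were lower: Scd1 (-3.00), Fabp4 (-2.33) and Apoe (-1.31).

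Olfactory-type receptors were sparse. Of 1135 Olfr features, 30 had at least 10 UMIs in smooth muscle cells. Olfr78, a receptor for short-chain fatty acids, lies 26446 bases from Olfr558 on chromosome 7, on the opposite strand. It stood at 6.17 to 29.8 CPM in members (median 12.6), 0 to 2.71 CPM in low-score cells and 0 to 0.342 CPM in cells without Enpep and Notch3, on 54, 27 and 13 UMIs. Olfr1034 (13.0 against 3.34 CPM) and Olfr1033 (143 against 154 CPM) overlapped between the groups, and these adjacent genes may share reads. Other Olfr genes were lower in members. The ratio to low-score cells was -3.70 for Olfr224, -2.20 for Olfr329-ps and -1.90 for Olfr330, against 2.53 for Olfr78. With the digestion share matched, these 3 genes were lower in all 6 libraries.

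Growth factor and TGF-beta genes were mostly lower or not called. Of 29 measured growth factors and receptors, 2 were higher and 8 lower, against 1.74% and 4.52% of all 7648 genes. Sema3d and Sema3c, guidance cues known from the cardiac outflow tract, were at 0 to 2.68 CPM against 28.3 to 59.4 CPM (ratio -5.09) and at 1.78 against 29.4 CPM (ratio -3.37). The Wnt modulators Sfrp2 (-4.48), Wif1 (-2.87), Dkk3 (-2.15) and Rspo3 (-2.73) the ligand Wnt16 (-2.87) and the binding protein Igfbp2 (-2.10) were also lower, and the binding protein Igfbp5 (1.19) was higher. The other higher gene counted in this list, Sncg (2.20), encodes gamma-synuclein, which is not a growth factor. Of 34 genes of TGF-beta and BMP signalling, 4 were higher and 3 lower, against the same shares of all genes. The higher ones were Bmp2 (1.29), Id1 (1.25), Id3 (1.07) and Tgfb3 (1.04). The lower ones were the BMP antagonist Fst (-3.87) and the receptors Bmpr1b (-3.48) and Acvrl1 (-1.75). None of the 4 higher genes was called after matching, where Bmp2 had a ratio of 0.99 and Tgfb3 of 0.76. Tgfbr1 stood at 29.7 to 70.8 CPM against 52.6 to 92.7 CPM, a ratio of -0.83, and a missense allele of it cannot be read from these levels.

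Of 19 inflammatory genes, 3 were higher and 2 lower, against 1.74% and 4.52% of all 7648 genes. The interferon-regulated factor Irf1 was at 65.9 to 201 CPM against 12.4 to 85.3 CPM, a ratio of 1.95 (1.20 after matching), with the stress gene Gadd45b (1.26) and the cytokine feedback gene Socs3 (1.23), neither of which was called after matching. The chemokine Cxcl12 (-2.43) and the adhesion molecule Vcam1 (-1.30) were lower, and Cxcl1 spread widely, from -2.38 to 2.16. The digestion list itself had 8 of 25 genes higher, Socs3 included, and 18 higher in all 6 libraries, with a median of 0.68 that came to 0.18 after matching. Junb was at 1445 to 3111 CPM against 579 to 1997 CPM and Atf3 at 1056 to 2432 against 389 to 998, while the heat shock gene Hspa1b (-0.35) and Klf6 (-0.58) were not higher. Whether these transcripts were present in the tissue or arose in digestion was not tested.

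**Figure D4:**
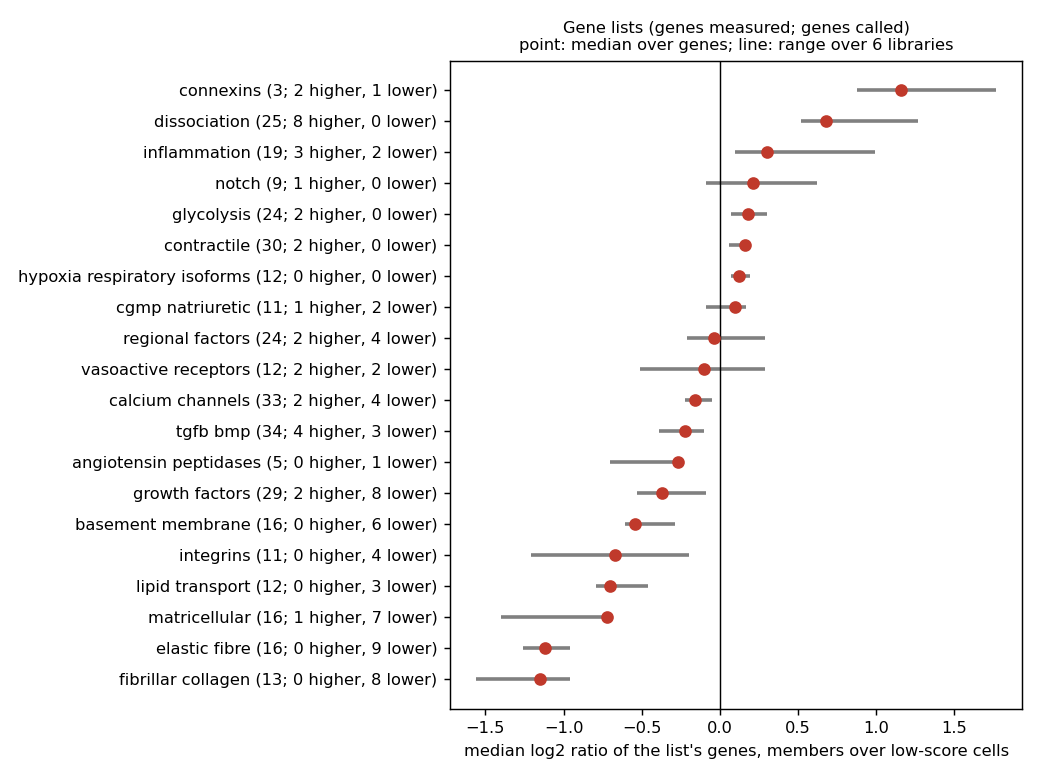
Median log2 ratio of members over low-score cells for each functional gene list (point) with the range of the list's median over the 6 libraries (line); the number of measured genes and of genes called higher and lower stands beside each name. Among these lists, from which marker lists of cell types and VSMC subsets are left out, the fibrillar collagen (-1.15) and elastic fibre (-1.12) lists lie lowest, the contractile list at 0.16, and the digestion list (dissociation) at 0.68.

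The lowest ratios of all belonged to Tes and Sema3d. Tes, which encodes testin, a focal adhesion protein, and which the study treats, like Ptprz1, as increasing along the ascending aorta towards its distal end, where Enpep and Notch3 decrease (chromosome 6, 17065149 to 17105828), had 14 UMIs in all 439 members. It was at 0 to 10.7 CPM in members (median 0.649), with 0 in libraries 1 to 3, against 66.1 to 147 CPM (median 78.1) in low-score cells and 74.6 to 175 CPM (median 116) in cells without Enpep and Notch3. The ratio to low-score cells was -5.78 (-6.32 to -2.56). A Tes UMI was found in 2.28% of members, 35.7% of low-score cells and 20.4% of leukocyte-gated cells, which express Tes themselves. Ptprz1 was at 3.72 to 41.5 CPM against 109 to 212 CPM, a ratio of -3.21. Members also held more Enpep and Notch3 than low-score cells. Whether Tes and Ptprz1 followed the score or the level of Enpep and Notch3 was not tested. The other genes among the 10 lowest were Pamr1 (-4.57), Sfrp2, Brip1 (-4.33), Ccdc42 (-4.32), the potassium channel Kcnj15 (-4.17), the keratin Krt18 (-4.10), the collagen-processing protein Pcolce2 (-4.10) and Mfap5. Each of the 10 had 56 UMIs or fewer in members, and each lay below low-score cells in all libraries. Sfrp2 and Ccdc42 were not called after thinning. The 5 lowest ratios to the cells without Enpep and Notch3 were those of Tes (-6.20), Kcnj15 (-5.34), Sema3d (-5.31), Mfap5 (-5.05) and Pamr1 (-5.04).

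Transcripts that mark other VSMC subsets of this tissue were in part called lower in members and in part not called. Ncam1, of a Foxf1-expressing subset, was at 31.9 to 89.8 CPM against 227 to 427 CPM, a ratio of -2.35. Igfbp2, the troponin Tnnt2 (-1.46), Wnt16 (-2.87) and the MHC class II genes Cd74 (-2.65), H2-Eb1 (-2.23), H2-Ab1 (-1.90) and H2-Aa (-1.44) were also lower, and Npnt (-0.95), Scx (-0.91), Fabp3 (-0.95), Optc (-0.36) and Nptx2 (-0.27) were not called. Rgs5, a regulator of G protein signalling found in pericytes and in some VSMCs, varied widely between libraries. It was at 30.9 to 581 CPM in members and 117 to 528 CPM in low-score cells, with ratios from -3.20 in library 3 to 0.71 in library 1 and a median of -1.10. In members it was concentrated in a few cells: 18 of the 439 held at least 10 Rgs5 UMIs per 10k, and they carried 84.1% of the members' Rgs5 UMIs. These 18 cells were 4, 1, 0, 6, 1 and 6 in libraries 1 to 6. The corresponding cells made up 5.43% of low-score cells and 9.15% of cells without Enpep and Notch3, against 4.10% of members.

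The differences followed the score below its limit as well as above. Among cells with an Enpep or Notch3 UMI, Sorbs2 was at 146 CPM at a score of 0, 276 above 0 and below 4, 752 from 4 to 8, 1228 from 8 to 16, 1627 from 16 to 32 and 1950 above 32. Eln over the same steps was at 1371, 796, 344, 178, 125 and 40.2 CPM, and Tes at 130, 51.5, 14, 6.94, 0 and 0 CPM. Acta2 was between 27331 and 30353 CPM in all 6 steps. Other contractile genes varied more: Tagln was at 20721, 23648, 25049, 26949, 25920 and 19093 CPM, and Cnn1 at 1900, 1797, 1732, 1725, 1376 and 924 CPM. Rgs5 was at 362 CPM at a score of 0, 101 to 157 CPM in the 4 steps between, and 669 CPM in the last step. The last step held 28 cells, with 1 of them in the thinnest library, and the 3 lowest steps held 1246, 606 and 302 cells. Thbs1 did not follow the score above the limit, with 361, 497, 417 and 469 CPM in the last 4 steps.

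**Figure D5:**
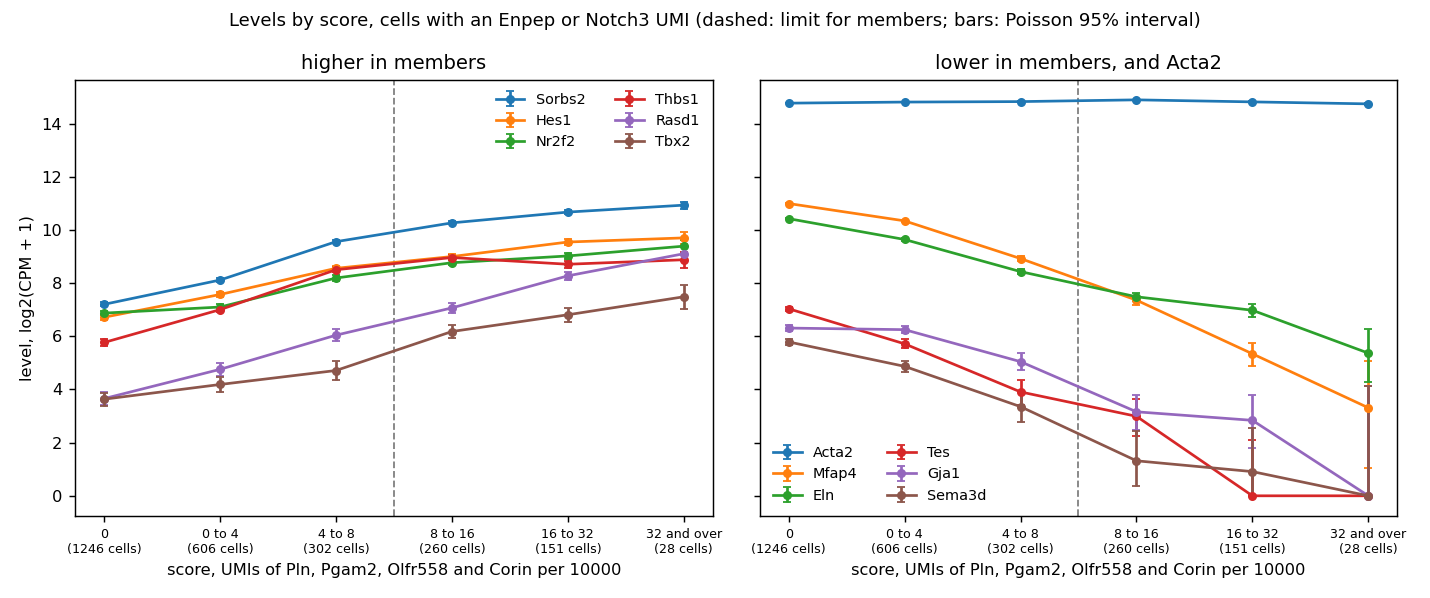
Level as log2(CPM + 1) of 12 genes in cells with an Enpep or Notch3 UMI, by steps of the score (UMIs of Pln, Pgam2, Olfr558 and Corin per 10k), all libraries summed, with Poisson 95% intervals that cover counting error only. Sorbs2 rises from 146 to 1950 CPM and Eln falls from 1371 to 40.2 CPM on both sides of the dashed limit, while Acta2 stays between 27331 and 30353 CPM.

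GFP UMIs were compared within the libraries that held the tracer transcript. In libraries 1 to 4 together, 7 of 237 members had a GFP UMI (2.95%, 1.20 to 5.99%), against 6.38% of low-score cells (5.05 to 7.95%), 7.47% of cells without Enpep and Notch3 (6.71 to 8.29%) and 0.578% of leukocyte-gated cells (0.0701 to 2.07%). The interval of members overlapped that of low-score cells and lay below that of cells without Enpep and Notch3. By library, 0 of 35, 3 of 40, 0 of 50 and 4 of 112 members held one. Within each of these libraries the intervals of members and of cells without Enpep and Notch3 overlapped. With cells thinned to 3000 UMIs the shares were 0.433% (0.0110 to 2.39%), 2.63% (1.78 to 3.74%), 3.07% (2.57 to 3.64%) and 0.361% (0.00914 to 1.99%). The thinned shares of members and of leukocyte-gated cells each rested on 1 cell with a GFP UMI, of 231 and 277 cells. The thinned interval of members again overlapped that of low-score cells and lay below that of cells without Enpep and Notch3. These intervals cover counting error only, over libraries that differ in GFP share, and a difference between the groups was not tested.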

How the data were processed

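The authors made 10x Genomics 3' v3 libraries, aligned the reads to mm10 and aggregated 6 libraries with Cell Ranger (version 6 in the submitters' processing notes, 4.0.0 in the header of the matrix). The deposited values are raw UMI counts of 31053 mouse genes and 2 added transcripts in 30716 barcodes. The quality limits kept barcodes holding 1000 to 5000 detected genes and 1500 to 25000 UMIs (bounds left out) of which less than 20% were mitochondrial. The barcode and cell numbers are slightly above those that the study gives. No cell was removed as a doublet; scrublet scores (scanpy 1.11.5) were computed per library. Cells were selected by limits on single transcripts, and the members and gene lists were chosen with earlier results of these data known. UMIs were summed per group and library and expressed as CPM. Log2 ratios used a prior of 0.5 UMI in the smaller group, scaled to both. Since libraries could not be assigned to genotypes, no p-value was computed and cells were not used as replicates. The 8 genes of the limits were left out of calls. Simulated fold changes were used to check the script. Thinning drew 3000 UMIs per cell. Genes were named as the 15 highest and 10 lowest called ratios to low-score cells, the 5 highest and 5 lowest to the other group, the 2 highest and 2 lowest of each list, markers of other VSMC subsets and cell types, and Olfr genes with at least 10 UMIs. Other genes named, those under 10 CPM among them, were chosen after their values were seen. Leukocyte-gated cells had at least 3 leukocyte markers, fewer than 3 endothelial markers, and fell below the Myh11 and Dcn limits. Some called genes are counted but not reported here by name. Intervals are exact (Clopper-Pearson or Poisson, 95%) and cover counting error only.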

Additional observations from a re-analysis of the deposited data

Results flagged for a closer look

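Over 32 sets of 6 library values (the share of members, 4 list medians and the ratios of 27 genes), 1 set held a library that stood apart from the other 5, where chance alone gives about 1 in 20 sets. The log2 ratio of Trp53i11 between members and low-score cells was 1.19 in library 3 and 1.92 to 2.19 in the others. Trp53i11 rested on 127 UMIs in members.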

How the results depend on the processing

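No paired analysis was possible because the matrix columns carry library numbers that the labels do not pair with samples, which holds for CTL against LDS, while members and comparison cells were compared within each library throughout. The alternatives were leaving out each library, other limits on the score (4 and 16), Dcn (5) and Myh11 (15), no Enpep and Notch3 limit, thinning, removal of the highest doublet scores, another prior (2 UMIs), another gene minimum (50 CPM), 1 sum over libraries, mean CPM per cell, and comparison cells matched on digestion share or depth. With a score limit of 4 the median share was 8.07% and the elastic fibre median -0.94. With a limit of 16 the median share was 1.87%, the contractile median was 0.08, the calcium median 0.00 and the elastic fibre median -1.58. Thinning gave 66 higher genes and a contractile median of 0.10. The minimum of 50 CPM gave 53 higher and 137 lower genes against low-score cells, 89 and 184 against the other group, and a calcium median of -0.06, with fewer genes tested. Matching on digestion share gave 82 higher genes, an elastic fibre median of -0.91 and a digestion median of 0.18. A minimum on the mean of members and low-score cells, added after the data were seen, gave a calcium median of -0.07 and 199 higher genes. Without each library in turn the calcium median ran from -0.21 to -0.09 (-0.09 without library 2 or 3), the higher genes from 119 to 140 and the lower genes from 345 to 388. Of 540 values of the 27 named genes, 536 stayed on the same side of the limit and 4 (Trp53i11, Dgkb, Sfrp2 and Ccdc42 under thinning) fell below it or lost a common sign, and 0 of the 540 changed sign in the median. Members numbered 35 in library 1, and the genes with the lowest ratios rest on few UMIs.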

Other observations

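Several genes outside the lists, chosen here after their values were seen, were also called. The complement proteases C1s1 (312 CPM in members, 71.5 CPM in low-score cells) and C1ra (152 and 53.4 CPM, log2 ratio 1.51) were both higher, as were the actin scaffold Palld (1107 and 382 CPM, 1.53) and the LIM protein Fhl2 (182 and 70.2 CPM, 1.38). Among abundant lower transcripts were the Wnt inhibitor Sost (120 and 1163 CPM, -3.49), the peptide-amidating enzyme Pam (568 and 2283 CPM, -1.93), Fmo2 (170 and 923 CPM, -2.48) and the actin-sequestering peptide Tmsb4x (5580 and 11339 CPM, -1.02).

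The minimum of 10 CPM over all smooth muscle cells left out 240 genes that reach it on the mean of members and low-score cells, and 66 of these were higher in members by the same call. They pass only through the members, so their number is no support for a difference. The Wnt agonist Rspo1 was at 18.5 to 55.2 CPM in members and 0.452 to 2.10 CPM in low-score cells, the sphingosine-1-phosphate receptor S1pr3 at 20.1 to 70.8 and 3.04 to 7.69 CPM, the endothelin receptor Ednra at 18.8 to 57.1 and 4.64 to 16.7 CPM, and skeletal actin, Acta1, at 37.5 to 168 and 2.28 to 9.04 CPM. Acta1 shares much of its coding sequence with Acta2, so its count is uncertain.

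The 96 cells that scored 8 or more without an Enpep or Notch3 UMI were set beside the members and the other cells without one, and genes differed in which they were nearer to. Tes was at 6.78 CPM (1.85 to 17.3) in them, 4.14 CPM (2.26 to 6.95) in members and 119 CPM (116 to 122) in the 7055 cells scoring under 8. Sorbs2 was at 711, 1411 and 141 CPM, and Eln at 305, 151 and 1452 CPM, in the same order. Gja1 was at 55.9, 6.81 and 97.9 CPM, Tbx2 at 23.7, 91.7 and 9.05 CPM, and Mfap4 at 520, 111 and 2397 CPM. Intervals are Poisson and cover counting error only.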
